A study of Homo sapiens with 18 samples.

Results

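The genes described here are 36 lysosome genes, named by their Ensembl identifiers in a table of 57773 genes: 11 proteases, 8 glycosidases, 6 lipid enzymes or carriers, 7 membrane proteins, 3 proton pump subunits and 1 transcription factor. All 36 were found and all 36 were among the 17702 genes tested. The measurements are of polyadenylated RNA from RPE1 cells, which are human retinal pigment epithelium made immortal. All 6 clones came from cells kept for 72 h in 2.5 uM ZM447439, an Aurora kinase inhibitor that lets cells leave mitosis without dividing. The survivors were grown for several weeks in medium with 10% serum and single cells were then cloned. The tetraploid clones are 4N-1, 4N-2 and 4N-3, and the diploid clones 2N-1, 2N-2 and 2N-3 came from the same plates, each diploid clone being the partner of the tetraploid clone of its number. Both 4N-2 and 2N-2 were also stained with the DNA dye Hoechst 33342 and sub-cloned. Each clone has 3 libraries (A, B and C), 18 in all. No clone without drug exposure is among the groups, so the drug history is shared by all of them. Each group is 1 clone, so that a difference between 4N-1 and 2N-1 is a difference between those clones, and the libraries of a clone measure the spread within it.

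Lysosomes are acidic compartments in which proteases, glycosidases and lipid enzymes break down material delivered by endocytosis, phagocytosis and autophagy. A proton pump, the V-ATPase, keeps them acidic, and heavily glycosylated proteins such as LAMP1 and LAMP2 line their membrane. Many of their genes are activated by TFEB and its relatives TFE3 and MITF, which bind the CLEAR element, a palindrome built on the E-box CACGTG. In the eye, retinal pigment epithelium digests the shed outer segments of photoreceptors in its lysosomes.

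The promoters are shown because members with that E-box can be read against members without it. RefSeq (GRCh38.p14) promoter windows of 300 bases, 250 before and 50 after the start, were found for 28 of 36 members. Motifs searched on both strands were the palindrome CACGTG, its longer form TCACGTGA, which always contains it, and the related CATGTG, which does not. CACGTG was present in 9 of the 28 windows (32.1%), against 7.43% of 27305 promoters of the same length. TCACGTGA was present in 5 (17.9%, against 1.04%) and CATGTG in 6 (21.4%, against 11.2%). The windows of 5 members are printed 5′ to 3′ on the strand of the gene, with CACGTG in capitals. GAA (chr17:80101331-80101630, plus strand) holds the longer form at both of its E-boxes, which start 76 and 31 bases before the gene. MCOLN1 (chr19:7522374-7522673, plus strand) holds it at 41 and 14 bases. CTSA (chr20:45891085-45891384, plus strand) holds E-boxes at 42 and 25 bases, 1 of them in the longer form. LAMP1 (chr13:113296989-113297288, plus strand) holds 6, the most of any member matched. CTSD (chr11:1763878-1764177, minus strand) holds 1 at 47 bases.
GAA: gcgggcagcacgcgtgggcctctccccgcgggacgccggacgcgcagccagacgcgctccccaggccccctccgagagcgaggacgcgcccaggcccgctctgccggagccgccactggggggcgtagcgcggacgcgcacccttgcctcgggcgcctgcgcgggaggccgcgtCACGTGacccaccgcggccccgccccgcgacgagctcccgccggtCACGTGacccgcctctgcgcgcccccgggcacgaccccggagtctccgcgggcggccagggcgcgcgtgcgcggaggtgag
MCOLN1: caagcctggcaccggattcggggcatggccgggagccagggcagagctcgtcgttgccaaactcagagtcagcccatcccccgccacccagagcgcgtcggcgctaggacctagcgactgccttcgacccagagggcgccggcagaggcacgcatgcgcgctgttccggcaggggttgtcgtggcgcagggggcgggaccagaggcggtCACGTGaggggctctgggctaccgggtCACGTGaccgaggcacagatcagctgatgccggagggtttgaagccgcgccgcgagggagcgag
CTSA: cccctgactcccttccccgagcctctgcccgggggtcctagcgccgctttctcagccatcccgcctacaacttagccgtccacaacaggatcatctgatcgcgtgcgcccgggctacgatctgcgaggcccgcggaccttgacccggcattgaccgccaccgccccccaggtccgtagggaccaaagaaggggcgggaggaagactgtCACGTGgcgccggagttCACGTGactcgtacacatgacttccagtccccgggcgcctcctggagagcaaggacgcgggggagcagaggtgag
LAMP1: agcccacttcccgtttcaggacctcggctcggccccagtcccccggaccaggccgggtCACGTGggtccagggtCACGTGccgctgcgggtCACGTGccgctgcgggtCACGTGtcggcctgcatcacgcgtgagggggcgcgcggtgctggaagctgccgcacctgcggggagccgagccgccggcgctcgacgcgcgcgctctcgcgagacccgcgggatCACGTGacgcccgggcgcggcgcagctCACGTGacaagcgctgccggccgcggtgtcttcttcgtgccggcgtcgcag
CTSD: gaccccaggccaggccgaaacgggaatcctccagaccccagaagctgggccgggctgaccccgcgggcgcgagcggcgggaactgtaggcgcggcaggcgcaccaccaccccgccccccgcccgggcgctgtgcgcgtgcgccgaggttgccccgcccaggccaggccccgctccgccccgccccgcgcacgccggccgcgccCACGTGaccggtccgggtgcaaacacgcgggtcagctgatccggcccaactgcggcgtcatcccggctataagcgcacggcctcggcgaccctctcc
The other members with CACGTG were ATP6V0D1, CD63, CTSF and NEU1. A match says only that these letters lie in the window.

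Levels differed widely among the members. The level is given in reads per M, where reads were recovered from the deposited values and M (mega) refers to the divisor of each library that those values imply. Divided by the length of the exons of the gene in kb, CTSD (the aspartic protease cathepsin D) had the highest mean over the 6 clones, at 1003 reads per M per kb. PSAP, the precursor of the saposins that activate sphingolipid enzymes, followed at 874, and CD63, a tetraspanin of the lysosome membrane, at 303. NPC2, a soluble cholesterol carrier, had 82.8 reads per M per kb and CTSB (cathepsin B) 77.6. At the other end were the transcription factor TFEB at 1.11, GALC (galactosylceramidase) at 1.03 and CTSS (cathepsin S) at 0.461 reads per M per kb. The members were deeply covered, with a median level of 94.7 reads per M against 19.5 over all tested genes, so that small changes of theirs pass a test more easily than those of an average gene.

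**Figure D1:**
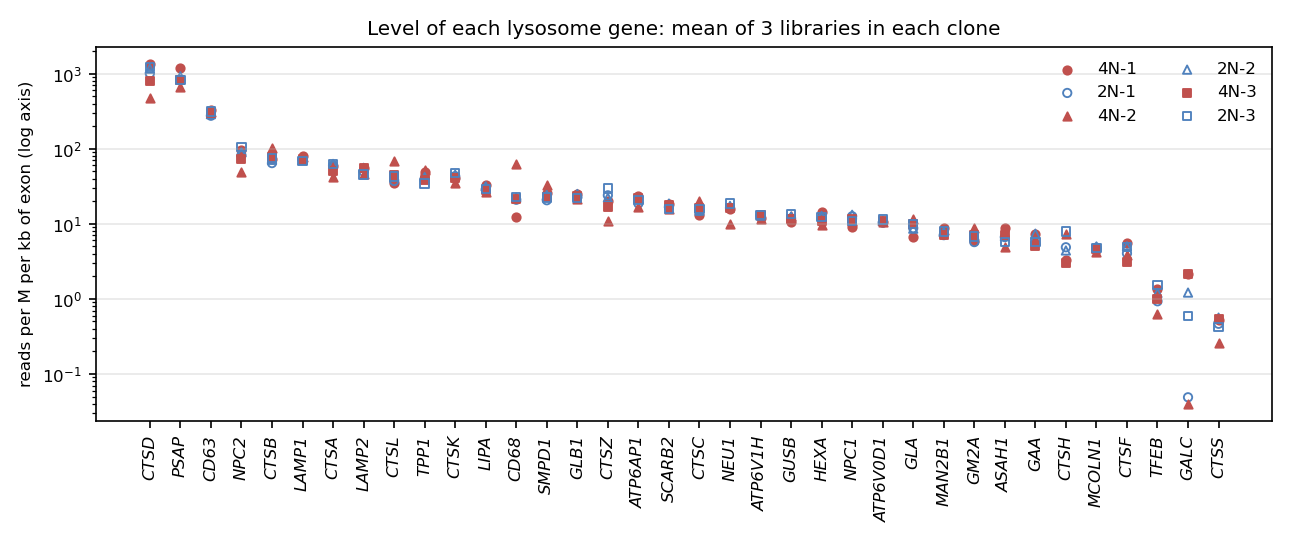
Level of each of the 36 lysosome genes on a log axis, in reads per M per kb of exon, as the mean of 3 libraries in each clone (filled red, tetraploid; open blue, diploid; circles, triangles and squares for pairs 1, 2 and 3). Points of most genes lie close together, CTSD is highest at a mean of 1003, and GALC is spread far more than its neighbours.

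Summed over all 36 members, the level was 13263 ± 207 reads per M in 4N-1, against 10531 ± 321 in 2N-1 (SD, n = 3 libraries each). It was 8693 ± 204 in 4N-2, against 11691 ± 884 in 2N-2, and 10042 ± 1153 in 4N-3, against 11485 ± 1793 in 2N-3. The sum was thus higher in the tetraploid clone of pair 1 and lower in that of pair 2, with no overlap of libraries in either, and the ranges of pair 3 overlapped. CTSD and PSAP together made up 41.5% of the sum in 4N-2, 60.7% in 4N-1 and 51.4% in 4N-3, against 55.3% to 56.8% in the diploid clones. All levels are relative to the library, so RNA per cell was not measured.

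Some features of the libraries bear on these genes. The libraries held 37.2 to 54.4 M reads in genes, and no 2 libraries of a clone agreed within sampling noise. Library A of 2N-3 stood apart: the median absolute difference of the 36 members from the other libraries of its clone was 0.38 (log2), and it was at most 0.22 for the other 17 libraries. In library C of 4N-3, 30 of 30 mitosis genes were lower than in A and B of that clone (median -0.68), and 30 of 36 members were higher (median 0.19). Counts are therefore also given without these 2 libraries. In library B of 2N-2, 30 of 30 mitosis genes were likewise lower than in A and C (median -0.27) and 30 of 36 members higher (median 0.10). Without that library, 8 members rose and 14 fell in pair 2, against 9 and 16 with all libraries. The shares of all genes without it were not counted. Mitosis genes moved between clones as well, with a median change of -1.35 in pair 1 (29 of 30 fell), 0.52 in pair 2 (22 rose, 0 fell) and 0.10 in pair 3 (0 passed). Their part in the changes of lysosome genes was not tested. Of 15 markers of retinal pigment epithelium, 7 stayed below 1 read per M in all libraries, RPE65, TYR and RLBP1 among them, and MITF, OTX2, KRT8 and KRT18 were present. Of 14 macrophage markers matched, 3 (TYROBP, C1QA and C1QC) had 0 reads in all 18 libraries, which allows up to 0.00386 reads per M over them, and 12 stayed below 1 read per M; the exceptions were CSF1R, with clone means of 7.79 to 11.1 reads per M, and LYZ, with 1.02 to 1.76.

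In pair 1 more lysosome genes rose than fell, in pair 2 more fell than rose, and in pair 3 few passed the test. Here rose and fell mean that limma's Benjamini-Hochberg adjusted p, over all 17702 genes, was below 0.05. Changes are log2 of 4N over 2N on the scale log2(reads per M + 0.5), which understates changes of genes near 0.5 reads per M. In pair 1, 9 of 36 members rose, against 12.9% of all tested genes, and 3 fell, against 11.8%. In pair 2, 9 rose, against 23.5%, and 16 fell, against 23.8%. In pair 3, 1 rose, against 4.68%, and 3 fell, against 3.67%. Over pairs 1 to 3 the members' median changes were 0.15, -0.24 and -0.01, and those of all tested genes were 0.01, 0.00 and 0.02. Changes of 2-fold or more were rare: in pair 1 these were 1 rise (1.47% of all genes) and 0 falls (1.95%), in pair 2 they were 1 rise (5.01%) and 3 falls (4.89%), and pair 3 had 1 of each (0.706% and 0.78%).

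Without library A of 2N-3 and library C of 4N-3, 20 members rose and 7 fell in pair 1 (26.7% and 24.4% of all genes), 10 and 22 in pair 2 (33.8% and 33.5%), and 4 and 8 in pair 3 (14.5% and 10.3%). Scaled to the reads in genes, 4 members rose and 5 fell in pair 1 (8.87% and 16.9% of all genes), so the balance of rises over falls in that pair depends on the scaling. The rises of ASAH1, ATP6AP1, GALC and PSAP and the falls of CD68, CTSH and NPC1 passed under both scalings. The count in pair 1 was 7 without A or B of 4N-1 or without B of 2N-1, and 25 without A of 2N-3, against 12 with all libraries. In pair 3 it was 7 without B of 2N-3, 10 without C of 2N-3 and 8 without C of 4N-3, against 4. Shares of all genes were not counted with a single library left out. These counts therefore show how the calls depend on the libraries, not a trait of the members.

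**Figure D2:**
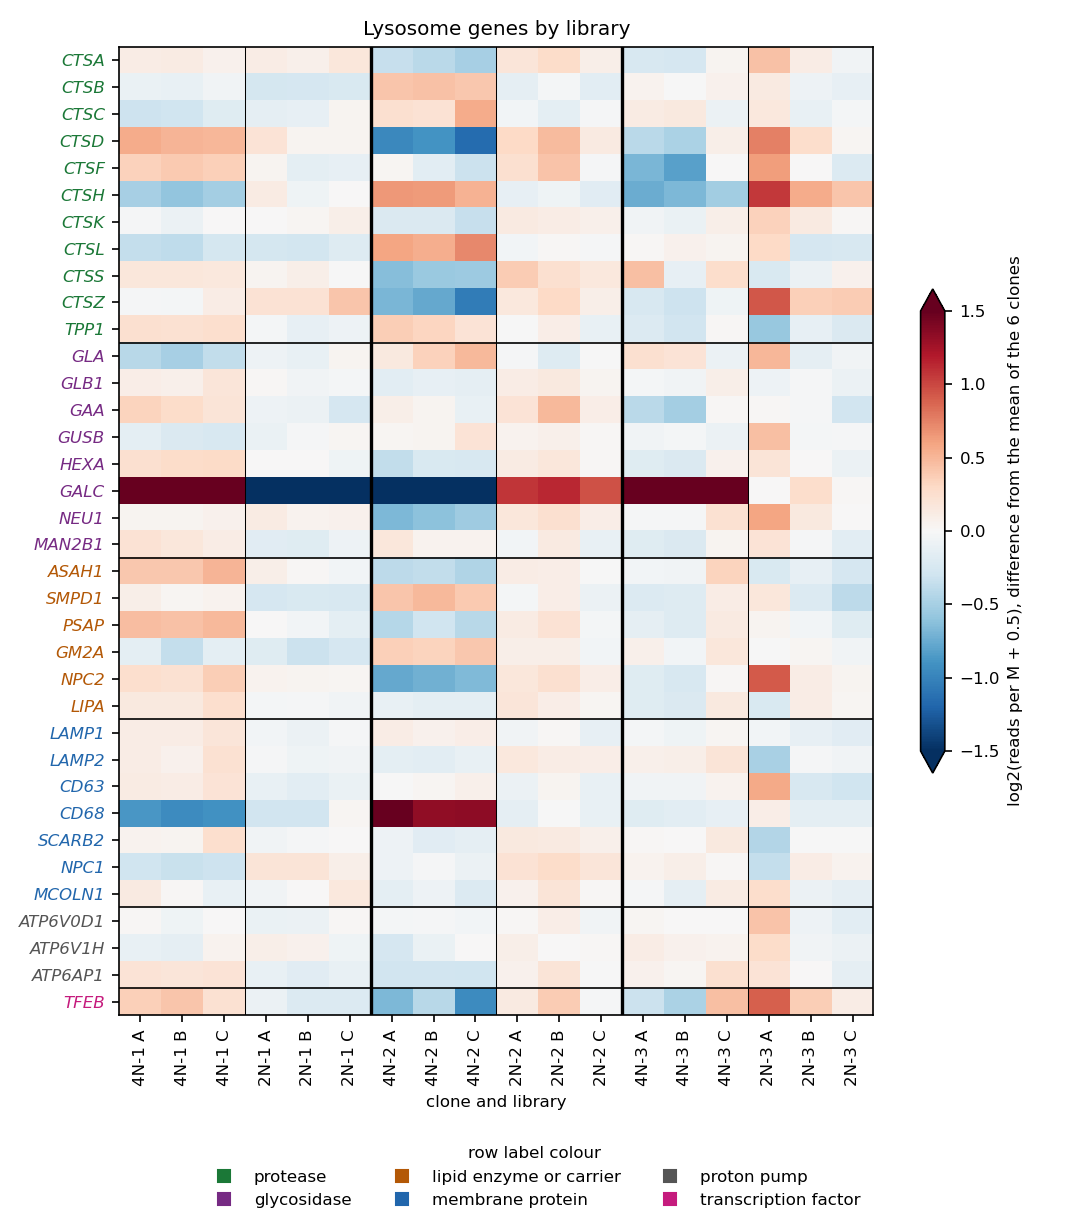
Each lysosome gene (rows, grouped by class) in each of 18 libraries (columns, tetraploid clone left of its diploid partner), as log2(reads per M + 0.5) minus the mean of the 6 clones; the colour scale ends at 1.5 in both directions. Library A of 2N-3 differs from B and C of its clone in many rows, GALC and CD68 stand out, and CTSD, CTSZ, NEU1 and NPC2 are low in 4N-2.

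**Figure D3:**
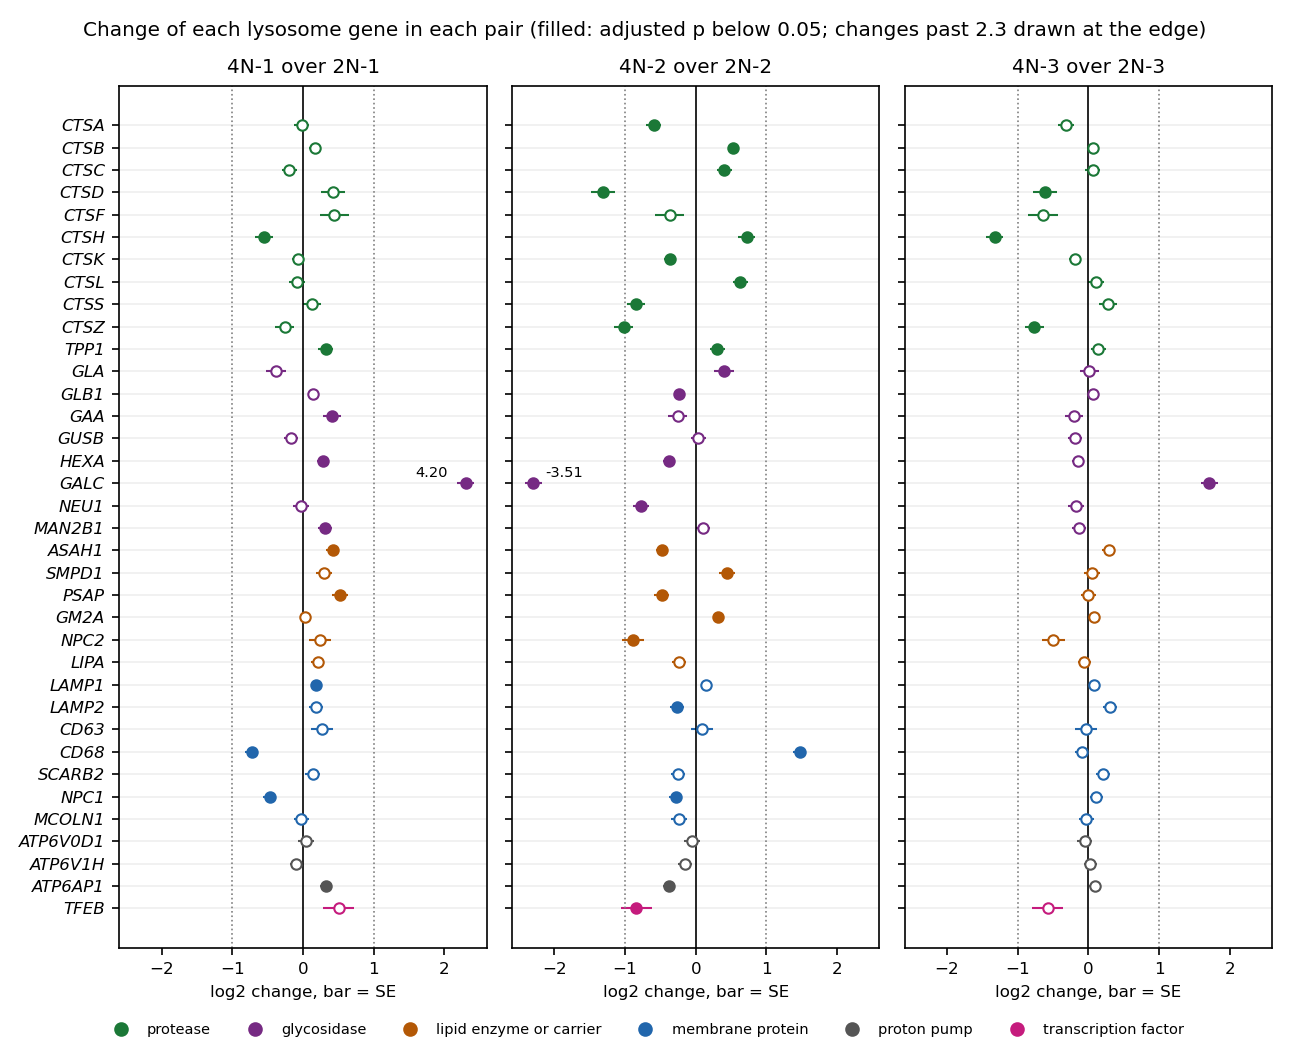
Change of each lysosome gene in each pair, as log2 of 4N over 2N with the SE of the fit, coloured by class; filled points have an adjusted p below 0.05, dotted lines mark 2-fold. In the pair 2 panel 9 filled points lie right of 0 and 16 left of it, and in the pair 3 panel 4 points are filled.

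The proteases split in opposite directions in pair 2. Of 11, 5 rose (CTSB, CTSC, CTSH, CTSL and TPP1) and 5 fell (CTSA, CTSD, CTSK, CTSS and CTSZ) in pair 2 (45.5% each, against 23.5% and 23.8% of all genes), with a median of -0.37. In pair 1, 1 rose (TPP1) and 1 fell (CTSH), against 12.9% and 11.8% of all genes. In pair 3, 0 rose and 3 fell (CTSD, CTSH and CTSZ), against 4.68% and 3.67% of all genes. All 11 differed among the 6 clones (moderated F test), against 62.9% of all genes.

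CTSD (ENSG00000117984, chromosome 11, 1752752 to 1764573, minus strand, GENCODE v29 on GRCh38) had 1504, 1583 and 1317 reads per M in libraries A, B and C of 4N-2, against 3632, 4073 and 3243 in 2N-2. Every 4N-2 library lay below every 2N-2 library, and the change was -1.31 (SE 0.17, adjusted p = 8.96e-06). In pair 3 it had 2214, 2125 and 3128 reads per M in 4N-3, against 4970, 3534 and 2997 in 2N-3; the groups overlapped, with C of 4N-3 above C of 2N-3, and the change was -0.61 (SE 0.17, adjusted p = 0.0354). That call was lost without A of 2N-3 (-0.41, adjusted p = 0.0891) and under 7 other settings. In pair 1 it had 4331, 4173 and 4157 reads per M in 4N-1, against 3385, 3035 and 3025 in 2N-1, with no overlap; the change of 0.42 (SE 0.17) had an adjusted p of 0.084 and passed without A of 2N-3 (adjusted p = 0.0129). The count of CTSD is uncertain, because AC068580.4, which shares 1304 exonic bases with it on the same strand, was listed with a mean of 2826 reads per M, 90.1% of the CTSD mean of 3135. AC068580.4 fell with CTSD in pair 2 (-1.36, adjusted p = 1.19e-05), with means of 1282 reads per M in 4N-2 and 3294 in 2N-2. The same reads can stand in both counts, so its fall is not a separate result. IFITM10 fell by 2.41 on the log2 scale (adjusted p = 4.35e-06). Its lower coordinate lies 20.3 kb below that of CTSD, and that of AC068580.4 lies 17.9 kb below. Whether IFITM10 shares reads with AC068580.4 was not tested.

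CTSZ, the carboxypeptidase cathepsin Z (ENSG00000101160, chromosome 20, 58995185 to 59007247, minus strand), was lower in the tetraploid clone of pairs 2 and 3. It had 24.7, 23.2 and 19.1 reads per M in 4N-2, against 44.7, 49.5 and 42.6 in 2N-2 (-1.02, SE 0.14, adjusted p = 1.03e-05). It had 33.8, 32.1 and 38.2 in 4N-3, against 76.8, 51.5 and 52.2 in 2N-3 (-0.76, SE 0.14, adjusted p = 0.00139). Libraries did not overlap in either pair, and A of 2N-3 was the highest of all 18. In pair 1 it had 39.6, 39.3 and 43.2 reads per M in 4N-1, against 46.6, 46.5 and 53.6 in 2N-1, again without overlap, and -0.26 (SE 0.14) had an adjusted p of 0.18. That change passed without A of 2N-3 (adjusted p = 0.0295).

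CTSH, the aminopeptidase cathepsin H (ENSG00000103811, chromosome 15, 78921058 to 78949574, minus strand), passed the test in every pair but not in 1 direction. It had 44.7, 44.4 and 40.8 reads per M in 4N-2, against 25.9, 27.1 and 25.1 in 2N-2 (0.72, SE 0.12, adjusted p = 0.000131). It had 20.0, 18.7 and 19.7 in 4N-1, against 30.8, 27.1 and 28.3 in 2N-1 (-0.55, SE 0.12, adjusted p = 0.00356), and 16.7, 17.5 and 19.6 in 4N-3, against 59.5, 41.7 and 37.9 in 2N-3 (-1.32, SE 0.12, adjusted p = 1.25e-06). The libraries of a pair did not overlap in any of the 3 pairs: CTSH was higher in the tetraploid clone in pair 2 and lower in it in pairs 1 and 3. It was also 1 of the 2 members that differed among the diploid clones, being highest in 2N-3.

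The other proteases changed by less than 2-fold on the fitted scale. In pair 2, CTSL, a cysteine endopeptidase, averaged 161 ± 10.6 reads per M in 4N-2, against 104 ± 2.22 in 2N-2 (0.63, adjusted p = 0.000155). CTSB, a cysteine protease with endo- and exopeptidase action, averaged 763 ± 9.76 reads per M in 4N-2, against 530 ± 24.3 in 2N-2 (0.53, adjusted p = 1.84e-05). CTSC, the dipeptidyl peptidase that activates serine proteases of granules, rose by 0.41. TPP1, the tripeptidyl peptidase lost in a form of Batten disease, was the only member to rise in both pair 1 (0.32, adjusted p = 0.0364) and pair 2 (0.31, adjusted p = 0.0244); these calls were lost in 10 and 5 of 28 other settings. CTSA, the carboxypeptidase that protects NEU1 and GLB1, averaged 243 ± 12.3 reads per M in 4N-2, against 369 ± 24.3 in 2N-2 (-0.60, adjusted p = 0.00025). CTSS and CTSK, which lie near each other on chromosome 1, fell in pair 2 by 0.84 and 0.37. CTSS had 1.04, 1.13 and 1.14 reads per M in 4N-2, against 2.62, 2.34 and 2.19 in 2N-2. Its libraries did not overlap, and its mean was 2.16 times higher in 2N-2, so whether it passed 2-fold depended on the pseudocount: the change was -1.04 with a pseudocount of 0.1 and -1.10 with limma-voom. The median change of the 1678 tested genes of chromosome 1 in that pair was -0.25, and no other chromosome with a member had a pair 2 median beyond 0.1 in either direction. CTSF, a cysteine protease, passed in no pair, with changes of 0.44, -0.37 and -0.64 in pairs 1 to 3.

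Among the glycosidases, which trim sugars from glycolipids, glycoproteins and glycogen, GALC changed most of all 36 members and the others by less than 2-fold. Of 8, 4 rose in pair 1 (GAA, HEXA, GALC and MAN2B1), against 12.9% of all genes, and 0 fell, against 11.8%. In pair 2, 1 rose (GLA) and 4 fell (GLB1, HEXA, GALC and NEU1), against 23.5% and 23.8% of all genes. In pair 3, 1 rose (GALC) and 0 fell, against 4.68% and 3.67%.

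GALC (ENSG00000054983, chromosome 14, 87837820 to 87993665, minus strand) removes galactose from galactosylceramide and is the enzyme lost in Krabbe disease. In pair 1 it had 14.5, 14.4 and 15.5 reads per M in 4N-1, against 0.320, 0.410 and 0.271 in 2N-1 (4.20, SE 0.12, adjusted p = 4.96e-13). In pair 2 it had 0.203, 0.351 and 0.269 in 4N-2, against 8.38, 8.75 and 7.73 in 2N-2 (-3.51, SE 0.12, adjusted p = 9.42e-13). In pair 3 it had 12.9, 13.2 and 17.4 in 4N-3, against 3.74, 4.59 and 3.80 in 2N-3 (1.71, SE 0.12, adjusted p = 5.03e-08). The low clones were 1 tetraploid (4N-2) and 1 diploid (2N-1), whose libraries overlapped each other, and those of 4N-1 and 4N-3 also overlapped each other; 2N-2 and 2N-3 lay between, with no overlap.

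Since the pseudocount reduces the fold of so low a gene, the reads of GALC were also compared directly. There were 1991 reads in 4N-1 and 41 in 2N-1, a ratio of 44.1 per M (95% exact binomial interval 32.4 to 61.6). There were 34 reads in 4N-2 and 1245 in 2N-2, so that 2N-2 was 30.3 times higher (21.6 to 44.0), and 1804 in 4N-3 and 498 in 2N-3, a ratio of 3.58 (3.24 to 3.96). These intervals cover counting error only. GALC reached 1 RPKM in no library, because the deposited length includes its introns, and is thus absent from the fit on deposited RPKM. Of its neighbours, SPATA7 had changes of 0.40, -0.03 and -0.13 in pairs 1 to 3, and FLRT2, on the other side, of -0.02, 4.29 and 0.72, so that FLRT2 rose in pair 2, where GALC fell.

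The other glycosidases moved by small amounts. HEXA, the alpha subunit of the beta-hexosaminidase that splits ganglioside GM2, averaged 180.4 ± 3.08 reads per M in 4N-1, against 148 ± 4.48 in 2N-1 (0.28, adjusted p = 0.0233), and 123 ± 7.04 in 4N-2, against 161 ± 8.70 in 2N-2 (-0.38, adjusted p = 0.00164). NEU1, a sialidase, averaged 48.5 ± 2.38 reads per M in 4N-2, against 83.7 ± 4.15 in 2N-2 (-0.78, adjusted p = 2.41e-05). GAA, which degrades glycogen, and MAN2B1, an alpha-mannosidase, rose in pair 1 (0.41 and 0.31) and passed in neither of the other pairs. In pair 1 the calls of HEXA, GAA and MAN2B1 were lost in 6, 7 and 5 of 28 other settings, scaling to the reads in genes among them. GLA (alpha-galactosidase A) rose by 0.40, a call lost in 4 settings, and GLB1 (beta-galactosidase) fell by 0.24 in pair 2. GUSB (beta-glucuronidase) passed in no pair. HEXA and MAN2B1 share exonic bases with same-strand genes listed with over 10% of their reads, so their counts are uncertain as well.

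Among the lipid enzymes and carriers, ASAH1 and PSAP rose in pair 1 and fell in pair 2. Of the 6 genes, these 2 alone passed in pair 1, where 12.9% of all genes rose and 11.8% fell. In pair 2 SMPD1 and GM2A rose and NPC2 fell beside them, where 23.5% of all genes rose and 23.8% fell. In pair 3, 0 passed, where 4.68% of all genes rose and 3.67% fell. PSAP had 3846, 3764 and 3890 reads per M in 4N-1, against 2790, 2703 and 2518 in 2N-1 (0.52, SE 0.11, adjusted p = 0.00214), and 2076, 2269 and 2076 in 4N-2, against 3033, 3233 and 2716 in 2N-2 (-0.48, SE 0.11, adjusted p = 0.00156). Neither pair's libraries overlapped. ASAH1, the acid ceramidase, averaged 137 ± 6.19 reads per M in 4N-1, against 102 ± 4.69 in 2N-1 (0.42, adjusted p = 0.00267), and 76.1 ± 2.32 in 4N-2, against 106 ± 4.95 in 2N-2 (-0.48, adjusted p = 0.000367). NPC2 had 129, 132 and 139 reads per M in 4N-2, against 248, 258 and 235 in 2N-2 (-0.89, SE 0.16, adjusted p = 0.000203), and its 417 in A of 2N-3, against 238 and 225 in B and C, was the highest of all 18 libraries. SMPD1, the acid sphingomyelinase, averaged 90.8 ± 2.85 reads per M in 4N-2, against 66.7 ± 4.53 in 2N-2 (0.44, adjusted p = 0.00434). GM2A, the activator protein that presents GM2 to beta-hexosaminidase, rose by 0.32 in pair 2. LIPA, which hydrolyses cholesteryl esters, passed in no pair, and missed the threshold in pair 2 with -0.24 (adjusted p = 0.0503).

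Of the 7 membrane proteins, CD68 was the only one that changed 2-fold. CD68 (ENSG00000129226, chromosome 17, 7579467 to 7582113, plus strand) is a LAMP-family sialomucin best known as a macrophage marker. It had 148, 131 and 133 reads per M in 4N-2, against 47.2, 51.7 and 47.9 in 2N-2 (1.48, SE 0.09, adjusted p = 1.34e-09), and 28.2, 26.8 and 27.3 in 4N-1, against 42.2, 42.3 and 52.9 in 2N-1 (-0.72, SE 0.09, adjusted p = 2.71e-05). All 4N-2 libraries were higher and all 4N-1 libraries lower than any other library. In pair 3 it had 45.5, 46.3 and 47.6 reads per M in 4N-3, against 55.6, 46.9 and 46.8 in 2N-3, overlapping, with a change of -0.09 (SE 0.09, adjusted p = 0.517). Of the 14 macrophage markers, 2 reached the minimum level for the test. LYZ (lysozyme) rose in pair 2, at 1.76 ± 0.112 reads per M in 4N-2, against 1.13 ± 0.0754 in 2N-2 (0.48, SE 0.11, adjusted p = 0.00228). CSF1R, a macrophage growth factor receptor, had 8.29 ± 1.94 reads per M in 4N-2, against 11.1 ± 1.43 in 2N-2 (-0.42, SE 0.18, adjusted p = 0.0681). The summed level of the 14, most of it CSF1R, was 8.37 to 12.3 reads per M in 4N-2, against 11.6 to 14.4 in 2N-2, and 10.7 to 10.9 in 4N-1, against 11.8 to 12.4 in 2N-1. Their part in the change of CD68 was not tested. AC016876.2, a same-strand gene that shares 1789 exonic bases with CD68, was listed with a mean of 764 reads per M, against 59.2 for CD68. It had 771 reads per M in 4N-2, near the 634 of the neighbour EIF4A1 and the 137 of CD68 together. In 4N-1 it had 641, near 614 and 27.4 together. Reads of CD68 thus appear to stand in both entries. The pair 2 change of AC016876.2, 0.06 (adjusted p = 0.737), is therefore not separate from that of CD68. MPDU1, downstream of CD68, rose by 0.84 in pair 2 (adjusted p = 0.000224).

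NPC1, the membrane partner of NPC2 in cholesterol export, was the only member to fall in both pair 1 and pair 2. It averaged 91.8 ± 1.19 reads per M in 4N-1, against 127 ± 4.96 in 2N-1 (-0.47, adjusted p = 0.00152), and 110 ± 2.66 in 4N-2, against 134 ± 4.74 in 2N-2 (-0.28, adjusted p = 0.0197). The pair 2 call was lost without B of 2N-2 and without A or C of 4N-2. LAMP1 rose in pair 1 (0.19, adjusted p = 0.0493), a call lost in 22 of 28 other settings, and its changes in pairs 2 and 3 were 0.15 and 0.09. LAMP2 fell in pair 2 (-0.26, adjusted p = 0.0342; lost in 7 settings). CD63, SCARB2, the receptor that carries beta-glucocerebrosidase to lysosomes, and MCOLN1, the calcium channel TRPML1, passed in no pair. The count of MCOLN1 is uncertain, because AC008878.2 shares 169 exonic bases with it on the same strand and was listed with 57.0% of its reads. CD63 ranged from 644 to 1174 reads per M over all libraries, and A of 2N-3 alone was above 914.

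**Figure D4:**
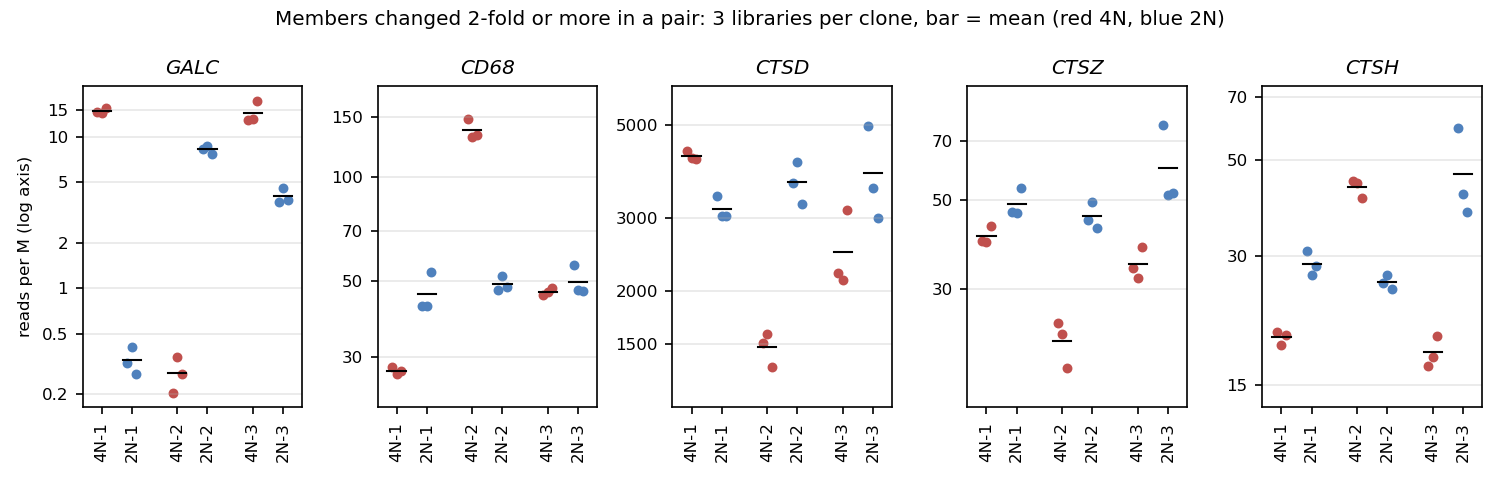
Reads per M on a log axis for the 5 members that changed 2-fold or more in a pair on the fitted scale, 1 point per library and a bar at the clone mean, tetraploid clones in red left of their diploid partners in blue. GALC is near 0.3 in 2N-1 and 4N-2 and above 3.7 in the other clones, CD68 is above 130 in 4N-2 alone, and CTSD, CTSZ and CTSH of 2N-3 are highest in library A.

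The 3 proton pump subunits among the members had the smallest median span between clones of the classes. ATP6V0D1, a subunit of the membrane sector of the V-ATPase, averaged 87.7 ± 2.57 reads per M in 4N-1, against 85.1 ± 3.65 in 2N-1, and 86.6 ± 0.842 in 4N-2, against 89.9 ± 4.94 in 2N-2. It averaged 89.4 ± 0.977 in 4N-3, against 94.1 ± 21.9 in 2N-3, and its change was between -0.05 and 0.04 in the 3 pairs. ATP6V1H, of the cytosolic sector, had changes of -0.10, -0.15 and 0.03 in pairs 1 to 3, and neither gene passed in any pair. The accessory subunit ATP6AP1 averaged 115 ± 1.51 reads per M in 4N-1, against 91.2 ± 1.86 in 2N-1 (0.33, adjusted p = 0.00865), and 81.5 ± 0.521 in 4N-2, against 106 ± 7.69 in 2N-2 (-0.38, adjusted p = 0.00136).

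TFEB, the transcription factor of the list, had 3.55, 4.34 and 2.85 reads per M in 4N-2, against 6.61, 7.89 and 5.85 in 2N-2, with no overlap, and fell in pair 2 (-0.84, SE 0.22, adjusted p = 0.00468). It had 7.78, 8.12 and 7.07 in 4N-1, against 5.57, 5.08 and 5.09 in 2N-1, also with no overlap, and the change of 0.50 (SE 0.22) had an adjusted p of 0.109. It had 4.67, 4.13 and 8.34 in 4N-3, against 11.5, 7.83 and 6.45 in 2N-3, where the groups overlapped (-0.57, SE 0.22, adjusted p = 0.126). The related factor TFE3 was higher in the tetraploid clone in all 3 pairs, by 0.23 (adjusted p = 0.0104), 0.32 (adjusted p = 0.000328) and 0.10 (adjusted p = 0.306), and MITF had changes of -0.19, 0.12 and -0.05, none of which passed. Among the 9 members with CACGTG in the promoter window 0 rose and 3 fell in pair 2 (CTSA, CTSD and NEU1), and among the 19 matched members without it 8 rose and 7 fell. The medians were -0.26 and 0.04. In pair 1, 2 of the 9 rose and 0 fell, against 4 and 3 of the 19, with medians of 0.19 and 0.13. The 2 that rose, GAA and LAMP1, missed the threshold when scaled to the reads in genes (limma adjusted p = 0.0799 and 0.202). Of the 4 without CACGTG, TPP1 and MAN2B1 missed it as well (0.141 and 0.067), and GALC and ATP6AP1 passed. The 8 members without a promoter window had 1 rise and 6 falls in pair 2. Their median of -0.37 was below that of the members with CACGTG. In pair 1 they had 3 rises and 0 falls, with a median of 0.17. In pair 3 the rises and falls were 0 and 1 of the 9, 1 and 2 of the 19, and 0 and 0 of the 8. Of all genes, 12.9% rose and 11.8% fell in pair 1, 23.5% and 23.8% in pair 2, and 4.68% and 3.67% in pair 3. No test was made of these differences between members.

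The pairs were then set beside each other. Of the 36 members, 5 rose in pair 1 and fell in pair 2 (HEXA, GALC, ASAH1, PSAP and ATP6AP1), 2 did the reverse (CTSH and CD68), 1 rose in both and 1 fell in both. Of all genes, 3.98% rose in pair 1 and fell in pair 2, 3.82% did the reverse, 4.29% rose in both and 2.49% fell in both. No member passed with the same sign in all 3 pairs, against 1.73% of all genes, and 8 passed in no pair, against 41.3%. The change differed between pairs (moderated F test, adjusted p below 0.05) for 26 of 36 members, against 49.5% of all genes, and by a span of 2-fold or more for 9, against 19.2%. Fitted on the summed reads of each clone (log2) with the pair as a block, 0 members passed in limma. Fitted over the 6 clone means in the same way, 0 members passed in limma, against 0% of all genes. The unadjusted p was below 0.05 for 1 member, CTSZ (-0.68, SE 0.18, adjusted p = 0.906), whose mean was lower in the tetraploid clone in 3 of 3 pairs, and for 811 of all genes.

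Variation among clones of equal ploidy was larger for the tetraploid clones. Levels differed among the 3 tetraploid clones for 29 of 36 members, against 59% of all genes, and among the 3 diploid clones for 2 (GALC and CTSH), against 5.51%. Without library A of 2N-3 and library C of 4N-3 the counts were 34 (83.1% of all genes) and 12 (16%). The span between the highest and the lowest clone mean was larger among tetraploid than among diploid clones for 33 of 36 members and for 74.8% of all genes. Its median over members was 0.54 and 0.22, and over all genes 0.44 and 0.24. The exceptions were LAMP2, SCARB2 and ATP6V0D1. Clone 4N-2 had the lowest mean for 17 members (47.2%, against 32.3% of all genes) and the highest for 8 (22.2%, against 32.0%), and 4N-1 the highest for 14 (38.9%, against 24.1%). Over all 6 clones, 28 members differed, against 62.9% of all genes, and 7 with a span of 2-fold or more, against 19.1%. By class, the median span over the 6 clones was 0.84 for proteases, 0.76 for lipid enzymes and carriers, 0.56 for glycosidases, 0.27 for membrane proteins and 0.19 for proton pump subunits.

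**Figure D5:**
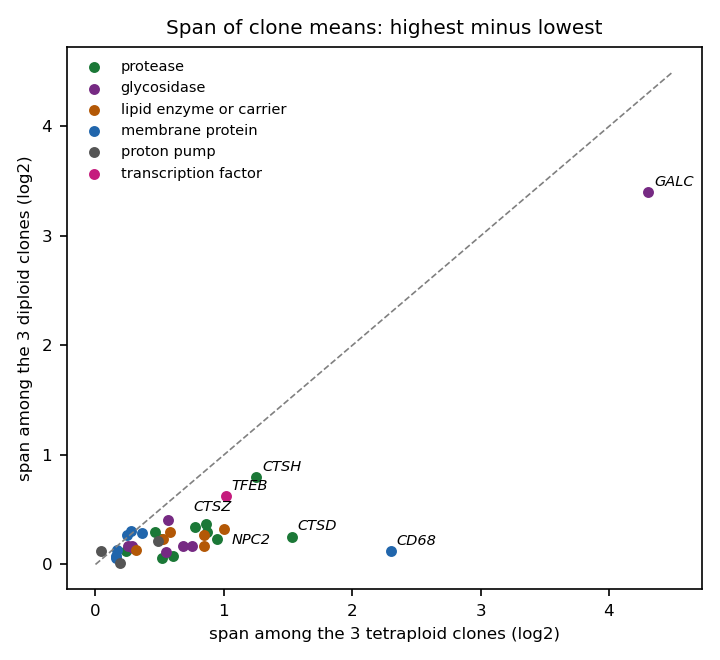
Span between the highest and the lowest clone mean (log2) among the 3 tetraploid clones, horizontally, and among the 3 diploid clones, vertically, 1 point per lysosome gene coloured by class; the dashed line marks equal spans. Points of 33 of 36 members lie below the line, and GALC is far out on both axes.

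Other genes of the pathway were taken from lists of its parts and counted in the same fit, to be read against 12.9% of all genes rising and 11.8% falling in pair 1, 23.5% and 23.8% in pair 2, and 4.68% and 3.67% in pair 3. Of 30 other hydrolases, 8 rose in pair 1 (26.7%) and 2 fell (6.67%). In pair 2, 3 rose (10.0%) and 17 fell (56.7%), and in pair 3 the counts were 1 and 2. The 2-fold changes among them were those of SGSH, a heparan sulfate sulfatase, at 16.2 reads per M in 4N-2, against 5.73 in 2N-2 (1.42, adjusted p = 4.11e-08), and DNASE2, an acid nuclease, at 22.4 in 4N-2, against 48.5 in 2N-2 (-1.10, adjusted p = 3.95e-06). Of 28 other membrane proteins, 8 rose (28.6%) and 2 fell (7.14%) in pair 1, with 6 (21.4%) and 13 (46.4%) in pair 2 and 2 and 0 in pair 3. The ion channel genes TPCN1 (-1.03) and MCOLN2 (-1.32) fell past 2-fold in pair 2, and MCOLN2 rose past it in pair 1 (1.04). Clone means were 74.6 to 201 reads per M for TPCN1 and 0.606 to 2.61 for MCOLN2. For 20 other V-ATPase subunits the counts of rises and falls were 8 (40.0%) and 1 (5.00%), then 5 (25.0%) and 7 (35.0%), then 1 and 1 in pairs 1 to 3. Levels of 15 of the 20 differed among the 6 clones, against 62.9% of all genes, and the median span was 0.60, against 0.55 over all genes. Past 2-fold were ATP6V0D2 (-1.46) and ATP6V1B1 (-1.04) in pair 2, and ATP6V1C2 in all pairs (1.05, -1.55 and -1.54). Scaled to the reads in genes, the rises and falls in pair 1 were 2 and 3 for the hydrolases, 5 and 3 for the membrane proteins and 5 and 1 for the subunits, against 8.87% and 16.9% of all genes.

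Sorting, control and autophagy genes were counted likewise. For 19 genes of sorting to the lysosome the counts of rises and falls were 2 (10.5%) and 1 (5.26%), 4 (21.1%) and 3 (15.8%), and 1 and 0 in pairs 1 to 3, those of pairs 1 and 2 below the shares of all genes. SORT1, the sortilin receptor, was at 96.5 reads per M in 4N-2, against 219.8 in 2N-2 (-1.18, adjusted p = 9.00e-07). For 19 genes of TFEB, its relatives and their control by the kinase mTORC1 they were 2 (10.5%) and 1 (5.26%), 5 (26.3%) and 8 (42.1%), and 1 and 0. RRAGD, a Rag GTPase of that control, was at 5.40 reads per M in 4N-1, against 0.716 in 2N-1, and at 0.623 in 4N-2, against 4.51 in 2N-2. Its changes of 2.28 (adjusted p = 8.17e-10), -2.16 (adjusted p = 3.59e-10) and 0.60 (adjusted p = 0.00397) had the signs of those of GALC in each pair. The ATP6V0D2 and MCOLN2 changes also passed in every pair with these signs, as did those of 0.621% of all genes. FNIP2, a folliculin partner, fell by 1.02 in pair 2. For 35 autophagy genes the counts were 6 (17.1%) and 1 (2.86%), 7 (20.0%) and 9 (25.7%), and 0 and 2, and 0 of them passed 2-fold. Scaled to the reads in genes, the rises and falls in pair 1 were 1 and 3 for sorting, 1 and 4 for TFEB and its control, and 3 and 1 for autophagy.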

How the data were processed

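The deposited table gives RPKM per Ensembl gene and library. The submitters' processing notes name CASAVA 1.8.2, TopHat2, edgeR and hg19; libraries were polyadenylated and stranded, per the labels' protocols. The annotation release and the use of strand in counting are not given in the sources used here. The deposited RPKM values take as length the whole genomic span, with introns (within 0.5% of the GENCODE v29 span for 21566 of 24743 genes with over 50 reads). Values above 0 are whole multiples of a step, and 100% gave whole reads within 0.01 reads. Reads per M are these reads over the divisor the values imply (36.1 to 54.8 M), because an RPKM minimum would drop genes with long introns. Genes with 1 read per M or more in 3 libraries were fitted as log2(reads per M + 0.5) with limma 3.58.1 in R 4.3.3, with a mean per clone, a trend in the spread and all 18 libraries; tests are two-sided with Benjamini-Hochberg adjustment. Differences among clones and between pairs used moderated F tests.

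The series' design calls A, B and C biological replicates without saying what was separate, so p-values measure the spread between these libraries. Members are a given list; the context and marker lists, tests and alternatives were chosen with earlier results of these data known, so no pattern of them is independent support. Values per library are given for members past 2-fold in a pair, with the largest span, or past the test with the same sign in all pairs. Those of PSAP, NPC2, TFEB and CTSS lie outside this rule and were added after their values were seen. Ratios of reads carry 95% exact binomial intervals (counting error only), and 0 reads were read as up to 3. Symbols, exons and positions are of GENCODE v29 on GRCh38, not of hg19. Context symbols without a match there were ATP6V0A3, MRC1 and TMEM55B. The fit was also run on simulated counts with the same relative spread in every gene and no outlying library. These data differ in that, so the run does not measure how the fit performs on them.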

Additional observations from a re-analysis of the deposited data

Results flagged for a closer look

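The change of 4N over 2N differed between the pairs by 2-fold or more, with an F test over all genes behind each difference, for 9 members. The span between the highest and the lowest of the 3 pair changes (log2) was 7.71 for GALC, 2.20 for CD68, 2.05 for CTSH, 1.74 for CTSD, 1.35 for TFEB, 1.13 for NPC2, 1.12 for CTSS, 1.08 for CTSF and 1.00 for PSAP. The adjusted p of the F test (limma) was between 1.57e-14 for GALC and 0.0139 for CTSF. Pair 2 had the lowest change for GALC, CTSD, TFEB, NPC2, CTSS and PSAP and the highest for CD68 and CTSH, while CTSF was lowest in pair 3. The 3 pairs share no clone.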

How the results depend on the processing

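Over 28 other settings (27 for GALC, which was not tested on deposited RPKM), the changes of GALC, CD68, CTSD, CTSZ and CTSH that passed kept their sign. Members past the test numbered 12 in pair 1, 25 in pair 2 and 4 in pair 3. Leaving out each library in turn gave 7 to 25 in pair 1, 22 to 29 in pair 2, 3 to 10 in pair 3 and 2 to 5 differing among diploid clones. Without library A of 2N-3 and library C of 4N-3 together the counts were 27, 32, 12 and 12. Shares of all genes were counted with all libraries, without these 2 libraries and, for pair 1, scaled to the reads in genes. For the other settings, the replicate block among them, no such shares were counted. On deposited RPKM, where 30 members were tested, 2 passed in pair 3 and 1 differed among diploid clones. The change of CTSD in pair 3 also missed the threshold with no minimum on reads (adjusted p = 0.114), on deposited RPKM (0.0713), and without A or B of 4N-3, B of 4N-1 or A of 2N-2 (0.0506 to 0.167). Correlations of same-lettered libraries of a pair were 0.02 to 0.40 in pairs 1 and 2 and -0.24 to 0.07 in pair 3. Of 18 libraries, 9 correlated best with their own letter. Whether a letter marks a shared batch was not tested. With the replicate block, 10, 25 and 3 members passed in pairs 1 to 3, 2 differed among diploid and 28 among tetraploid clones, and CTSD in pair 3 had an adjusted p of 0.0533. Causes were not tested. Depth limits the statements on GALC in 4N-2 and 2N-1, with 34 and 41 reads, and on TFEB and CTSS. Reads on exons that a member shares with a same-strand gene cannot be assigned to either gene. For CD68 they appear to stand in both counts.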

Other observations

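Inhibitors of cathepsins were counted in the same fit. Of 5 tested, 2 rose in pair 1 (12.9% of all genes rose), 3 rose in pair 2 (23.5%), and pair 3 had 1 rise (4.68%) and 1 fall (3.67%). SERPINB1, an inhibitor of serine proteases of granules such as cathepsin G, was at 15.8 reads per M in 4N-2, against 2.25 in 2N-2 (2.57, adjusted p = 1.90e-11), and at 0.370 in 4N-3, against 2.33 in 2N-3 (-1.70, adjusted p = 2.59e-08). CSTA (stefin A) was at 2.54 reads per M in 4N-2 and 0.687 in 4N-1, with 0 reads in 2N-2 and 2N-1, which allow up to 0.02004 and 0.0245 reads per M. Only 4N-2 brought CSTA to the minimum level for the test. The filter thus favoured its rise in pair 2, which is 1 of the 3 counted above. The 2 rises in pair 1 were those of CSTA and of SERPINB1, at 0.494 reads per M in 4N-1, against 0.114 in 2N-1. CSTA was also the rise in pair 3, at 0.306 in 4N-3, against 0.0458 in 2N-3. Both clones were below 1 read per M in each of these rises of pairs 1 and 3. CST3 (cystatin C) was at 110 reads per M in 4N-2, against 71.6 in 2N-2 (0.63, adjusted p = 0.0134), and CSTB (stefin B) passed in no pair.

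Among 7 tested markers of retinal pigment epithelium, 2 changed 2-fold or more, both in pair 2, where 5.01% of all genes rose and 4.89% fell by as much. MERTK, the receptor for uptake of outer segments, was at 1.61 reads per M in 4N-2, against 7.34 in 2N-2 (-1.89, adjusted p = 2.74e-08). LRAT, the retinol acyltransferase of the visual cycle, was at 11.0 reads per M in 4N-2, against 3.75 in 2N-2 (1.43, adjusted p = 1.74e-07).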
